A study of Macaca mulatta with 449 samples.

Results

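The thalamus (THA) and the hypothalamus (HTHA), the 2 large divisions of the diencephalon, were compared gene by gene in 8 rhesus macaques. The comparison used the count columns of the THA and HTHA dissections, 1 of each from every animal, which are 16 of the 408 brain samples in the count table. That table covers 51 sub-regions of these brains, measured by RNA-seq after removal of ribosomal RNA. All 16 samples came from healthy, untreated animals, 4 male and 4 female. Of these, 4 were young (3.2 to 5 years, Rhesus 4, 7, 8 and 10) and 4 mid-aged (9.8 to 10 years, Rhesus 2, 3, 6 and 11), with 2 animals of each sex at each stage. Each sample was 1 small piece of tissue cut by the same anatomist, so it held some nuclei of the structure and not the whole of it, and adjoining tissue could enter a piece. The labels name no nucleus within THA or HTHA.

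The thalamus relays sensory and motor signals to the cortex through glutamatergic projection neurons, which fire either single spikes or bursts carried by low-threshold calcium channels, and a shell of GABA neurons, the reticular nucleus, inhibits these relay cells. The hypothalamus is a set of small nuclei that release peptide hormones into the blood and the pituitary portal vessels and govern feeding, arousal, temperature and reproduction. The 2 structures arise side by side in the embryo, and their neurons keep different sets of transcription factors into adult life.

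Total counts were 9408110 to 14435755 per THA sample and 9057534 to 12359990 per HTHA sample. The 4 genes used as markers of the labels separated the groups in every animal. *TCF7L2*, a transcription factor of thalamic neurons, had 240 to 359 CPM (read counts scaled to a common library size after TMM normalization) in THA (median 288) and 5.62 to 9.68 CPM in HTHA (median 7.83). *SHOX2*, a homeobox factor of thalamic relay neurons, had 205 to 383 CPM (median 304) against 0.627 to 3.12 CPM (median 1.64). *OXT*, the gene of oxytocin, had 0 to 0.828 CPM in THA (median 0) and 184 to 1900 CPM in HTHA (median 847). *HCRT*, which encodes the arousal peptides called hypocretins or orexins, had 0 to 0.311 CPM in THA (median 0.0355) and 2.88 to 311 CPM in HTHA (median 174). The groups overlapped in none of the 4, and each of the 16 samples resembled another sample of its own region most closely.

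Some HTHA samples stood apart from the others. In the HTHA sample of Rhesus 6, *SLC17A7*, the vesicular glutamate transporter of cortical projection neurons, had 501 CPM against 1.02 to 5.28 CPM in the other HTHA samples. *KCNS1*, a potassium channel subunit, had 57.7 CPM there against 0 to 1.10 CPM. The 11 neocortex markers matched summed to 2202 CPM in that sample and to 111 to 208 CPM in the rest of HTHA. This set includes *SLC17A7* and *KCNS1* themselves, and *NRGN* alone had 1245 CPM in that sample, so the sum is not separate support. The same sample had low levels of several hypothalamic genes, such as *HDC* (1.36 CPM, histidine decarboxylase) and *NKX2-1* (0.940 CPM, a homeobox factor of the ventral hypothalamus). The HTHA sample of Rhesus 11 had the lowest *HCRT* and *PMCH* and the highest levels of the cholinergic genes given below, and that of Rhesus 3 had the most myelin RNA, with 23200 CPM of *MBP*, the myelin basic protein. In THA, the sample of Rhesus 8 had the highest *MBP* (17170 CPM). Where leaving out Rhesus 6 changed the number of calls in a list, the new counts or the genes that changed are given.

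Of 14829 genes tested, 751 were higher in THA (5.06% of those tested) and 1003 were higher in HTHA (6.76%). These were called by edgeR's quasi-likelihood test with the animal as a block, at a Benjamini-Hochberg false discovery rate (FDR) below 0.05 and a fold above 2. Fold changes are given as log2 of THA over HTHA, so a negative log2FC means a higher level in HTHA, and the median log2FC of all genes tested was -0.02. Of the called genes, 616 were higher in THA and 826 higher in HTHA in all 8 animals. The 2 groups did not overlap for 428 of the genes called in THA and 539 of those called in HTHA, and for 10.3% of all genes tested. By FDR alone, 41.9% of genes differed. Without Rhesus 6, 934 genes (6.29%) were higher in THA and 965 (6.50%) in HTHA, and without Rhesus 6 and 11 the counts were 954 (6.41%) and 997 (6.70%). The share of calls that pointed to THA was 42.8% with all animals and 49.2% without Rhesus 6. Levels in bulk tissue do not tell fewer cells of a type from less RNA per cell, and this holds for every difference given here. Counts of list members called are descriptions, read against the percentages above, because a gene that passed the filter on low counts only through the region where it is high had to differ.

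**Figure D1:**
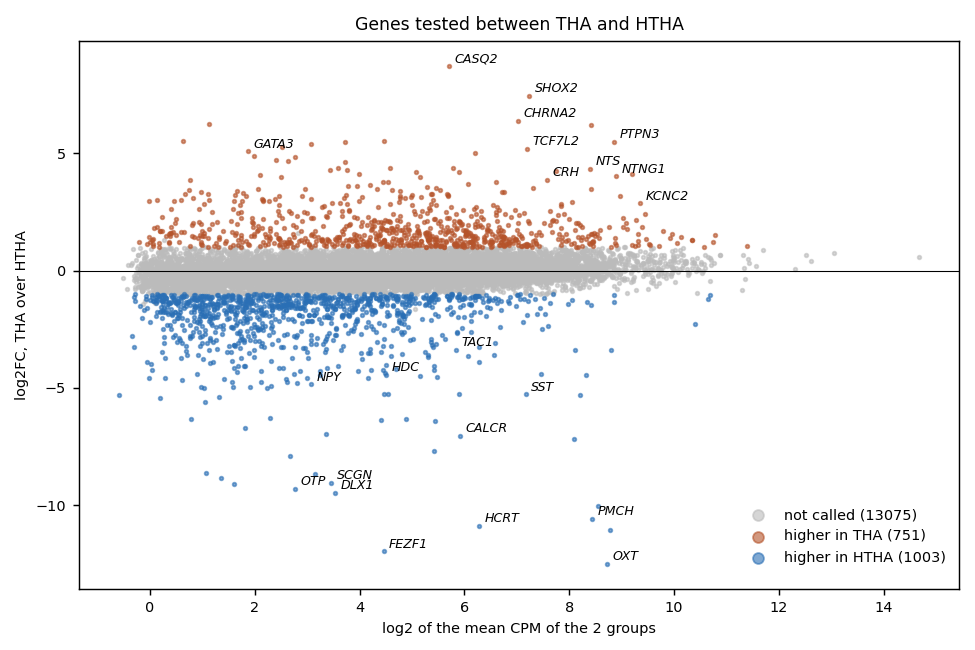
Each point is 1 of the 14829 genes tested, with log2 of the mean CPM of the 2 groups on the x axis and log2FC (THA over HTHA) on the y axis. The 751 genes called higher in THA are orange, the 1003 called higher in HTHA are blue and the others are grey. The points with the lowest log2FC, *OXT*, *HCRT* and *PMCH* among them, lie farther from 0 than any point on the THA side.

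Transcription factors of the thalamus made up a list of 15 genes, of which 13 passed the filter. Of these, 10 were higher in THA and none was higher in HTHA, with a median log2FC of 2.28. *TCF7L2* had a log2FC of 5.20 ± 0.11 (SE, n = 8 animals, FDR 1.74e-10), and that of *SHOX2* was 7.44 ± 0.24 (FDR 3.71e-09). The SE here and below is the absolute log2FC divided by the square root of the quasi-likelihood F statistic. It was not estimated apart from that test. For genes with few counts in the lower region, such as *ISL1* and *HCRT* in THA, it can be smaller than counting error alone.

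*GBX2*, a homeobox factor needed for thalamic differentiation, had 5.79 to 17.2 CPM in THA (median 11.7) and 0.0827 to 1.52 CPM in HTHA (median 0.347). Its log2FC was 4.66 ± 0.37 (FDR 2.38e-06), and no HTHA sample reached the lowest THA sample. *LHX9*, a LIM homeobox factor of relay neurons, had 24.95 to 60.7 CPM in THA (median 51.1) and 0.940 to 8.23 CPM in HTHA (median 6.92). The groups did not overlap here either (log2FC 3.09 ± 0.27, FDR 4.68e-06), although the THA sample of Rhesus 8 lay well below the other THA samples. *FOXP2*, a forkhead factor, showed the same low THA sample, with 37.5 CPM in Rhesus 8, a THA median of 102 CPM and 17.7 to 28.6 CPM in HTHA (log2FC 2.10 ± 0.15, FDR 1e-06).

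*LEF1*, a partner of TCF7L2 in Wnt signalling, and the zinc finger genes *ZIC1* and *ZIC4* were higher in THA with log2FC of 1.61, 2.29 and 2.36 and no overlap between the groups. *RORA*, a nuclear receptor of sensory relay nuclei, was higher in THA with a log2FC of 2.28 ± 0.36 (FDR 0.000387). Its THA values fell into a low set of 5.72 to 8.28 CPM in Rhesus 4, 8 and 10 and a high set of 26.6 to 42.4 CPM in the other 5 animals. The low set overlapped HTHA (2.44 to 9.09 CPM). It held young animals only, and the remaining young animal, Rhesus 7, was in the high set. *PROX1* was also called (log2FC 1.54 ± 0.26).

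Of the 3 thalamic factors tested but not called, *SOX2*, a factor of progenitors and glia, had a log2FC of 0.09 ± 0.11. *RORB* had 2.82 to 9.77 CPM in THA, 2.64 to 35.4 CPM in HTHA and a log2FC of -0.25 ± 0.34 (FDR 0.576), with its highest HTHA value in Rhesus 6. *LHX2* had a log2FC of 0.65 ± 0.36 (FDR 0.174) with all animals and was called without Rhesus 6 (1.09, FDR 0.0022), whose HTHA sample held 37.3 CPM. *POU4F1* and *OLIG3*, the other 2 listed factors, did not pass the filter and stayed at or below 0.621 CPM in every sample.

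A further 7 listed factors mark GABA neurons of the caudal or reticular thalamus, and 5 of them could be matched and tested. Of these 5, 2 were higher in THA and 1 in HTHA (median log2FC 0.81), and without Rhesus 6 the counts were 3 and 1 (median 1.13). *GATA3* had 4.05 to 10.9 CPM in THA (median 6.87) and 0 to 0.718 CPM in HTHA (median 0.133), with a log2FC of 5.08 ± 0.47 (FDR 7.9e-06). *GATA2*, which pairs with it in such neurons, did not separate the regions, with 4.72 to 8.37 CPM in THA, 4.24 to 6.46 CPM in HTHA and a log2FC of 0.27 ± 0.17 (FDR 0.224). *OTX2* had 49.6 to 120 CPM in THA (median 62.8) and 0.522 to 12.7 CPM in HTHA (median 6.67), without overlap (log2FC 3.55 ± 0.32, FDR 5.71e-06). *OTX2* is also made by choroid plexus, and *TTR*, the transthyretin gene that defines this tissue, had 4.24 to 265 CPM in THA and 0.836 to 17.5 CPM in HTHA (log2FC 3.13 ± 0.78, FDR 0.00714). The 7 choroid plexus markers matched, a set that includes *OTX2* itself, summed to 85.8 to 367 CPM in THA and 20.4 to 88.3 CPM in HTHA, and the part of choroid plexus in the *OTX2* difference was not tested. *SIX3*, which marks both the reticular thalamus and the hypothalamus, was the 1 member higher in HTHA (0 to 0.397 against 3.03 to 10.0 CPM, log2FC -4.95 ± 0.37).

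The 12 named genes with the largest log2FC toward THA began with *CASQ2*, calsequestrin 2, a calcium store protein best known from heart muscle. It had 72.1 to 136 CPM in THA (median 106) and 0 to 0.546 CPM in HTHA (median 0.175). No value of one region came near the other (log2FC 8.73 ± 0.27, FDR 3.07e-09). *ATP2A3*, a calcium pump of the endoplasmic reticulum, had 72.6 to 199 CPM in THA (median 147) and 2.81 to 9.28 CPM in HTHA (median 3.78), and its log2FC was 5.03 ± 0.29. *CHRNA2*, a nicotinic receptor subunit, had 102 to 392 CPM in THA (median 249) and 1.07 to 15.1 CPM in HTHA (median 2.29). Its highest HTHA value was that of Rhesus 6, and its log2FC was 6.39 ± 0.42 with that animal and 6.94 without it.

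*PTPN3*, a protein tyrosine phosphatase, had 780 to 1072 CPM in THA (median 906) and 10.8 to 66.2 CPM in HTHA (median 18.5). The regions stayed apart in all animals (log2FC 5.48 ± 0.28), and the highest HTHA sample was again that of Rhesus 6. *FAM19A4*, a secreted chemokine-like protein, had a log2FC of 5.52 ± 0.26 and 26.8 to 60.02 CPM in THA. *NDC80*, a kinetochore protein of dividing cells, had 15.6 to 38.6 CPM in THA against 0.102 to 0.910 CPM in HTHA (log2FC 5.50 ± 0.25). *IL12B*, the shared subunit of 2 interleukins, *SMPX*, a small muscle protein, and *RD3L* were also called, with THA medians of 15.2, 9.94 and 4.21 CPM and log2FC of 5.40, 5.25 and 6.26.

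**Figure D2:**
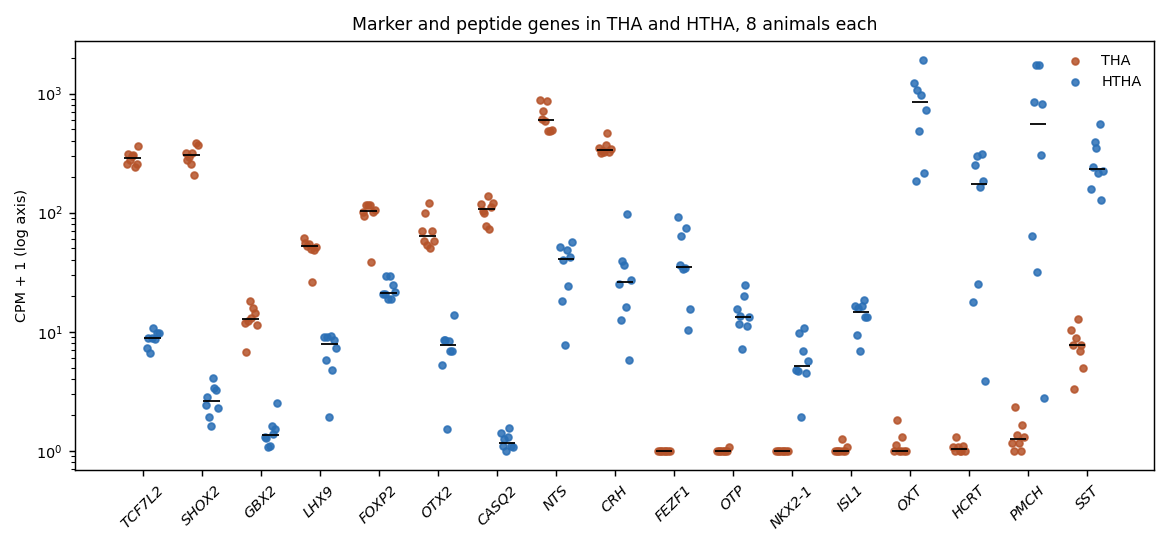
The y axis is CPM + 1 on a log scale. Each point is 1 sample, orange for THA and blue for HTHA, and the short lines are the medians of the 8 animals. THA lies above HTHA for the factors *TCF7L2*, *SHOX2*, *GBX2*, *LHX9*, *FOXP2* and *OTX2* and for *CASQ2*, *NTS* and *CRH*, and HTHA lies above THA for the other genes shown, with a spread of HTHA values from 2.88 to 311 CPM for *HCRT* and from 1.78 to 1737 CPM for *PMCH*.

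Hypothalamic transcription factors were a list of 32 genes, of which 22 were matched to the table and 15 passed the filter. Of these 15, 10 were higher in HTHA, 1 was higher in THA and 4 were not called. Their median log2FC was -4.95, and -3.99 with the 4 members that had no THA count set to their lower bounds. With no filter, when 3.71% of 23941 genes were higher in THA and 6.2% in HTHA (4.1% and 6.27% when Rhesus 6 was also left out), 15 of 21 were higher in HTHA and 1 in THA.

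*FEZF1*, a zinc finger factor of the ventromedial hypothalamus, had no count in any THA sample and 9.33 to 90.98 CPM in HTHA (median 34.3). Against a floor of 3 counts per THA library it was at least 166-fold higher in HTHA (FDR 1.55e-05). *HMX3*, *NKX2-1* and *SIM1*, the last a factor that paraventricular neurons depend on, were also without a THA count. They were at least 22.9-fold, 19.3-fold and 15.9-fold higher in HTHA, where their medians were 5.93, 4.21 and 4.66 CPM. *HMX3* and *NKX2-1* had their lowest HTHA values, 0.836 and 0.940 CPM, in Rhesus 6.

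*OTP*, a homeobox factor of neuroendocrine neurons, had 1 count over all THA libraries and 6.16 to 23.7 CPM in HTHA. The ratio of summed counts was 1302 with an exact 95% counting interval of 233 to 51484, which covers counting error only. *DLX1*, a factor of forebrain GABA neurons, had 14.5 to 28.5 CPM in HTHA and 2 THA counts, with a ratio of 1072 (296 to 8856). *ISL1*, a LIM homeobox factor of arcuate neurons, had 5.96 to 17.4 CPM in HTHA (median 13.5) and at most 0.253 CPM in THA (log2FC -7.88 ± 0.39, FDR 8.83e-08). All 8 HTHA samples held each of these 3 factors, that of Rhesus 6 having the lowest *OTP* and *ISL1*.

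*LHX1*, which marks the suprachiasmatic region among others, and *LHX6* had log2FC of -3.21 ± 0.40 and -3.48 ± 0.36. The highest *LHX6* value, 47.1 CPM, was in Rhesus 11. *NHLH2*, a basic helix-loop-helix factor of neuroendocrine neurons, was the listed factor that was higher in THA, with 31.8 to 60.2 CPM against 6.58 to 21.02 CPM and no overlap (log2FC 1.76 ± 0.19, FDR 2.38e-05). The 4 factors not called were *ARNT2*, *POU3F2*, *TBX3* and *FOXB1*, with log2FC between -0.71 and -0.12. *ARNT2*, the partner of SIM1, differed at FDR 0.00229 but by less than 2-fold.

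Several factors of single nuclei did not pass the filter because only some HTHA samples held them, and they were tested without it. *NR5A1*, the factor that defines the ventromedial nucleus, had 12.99 to 15.99 CPM in the HTHA samples of Rhesus 2, 4 and 8, 7.52 CPM in Rhesus 6 and 0.169 to 1.68 CPM in the other 4, against 1 count in all THA libraries. *NKX2-4* had a median of 5.86 CPM in HTHA and a log2FC of -5.66 ± 0.46 without the filter (FDR 1.3e-07). *LHX8*, a factor of cholinergic neurons of the basal forebrain, reached 37.6 CPM in the HTHA sample of Rhesus 11 and at most 4.10 CPM in the others. *RAX*, a factor of hypothalamic tanycytes in the adult, had no count in any of the 16 samples.

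Among the magnocellular and releasing hormone genes, 9 of 10 were matched and 6 passed the filter. HTHA was higher for 4 of them and THA for 1, and without the filter for 7 and 1 of 9. *OXT* had the most negative log2FC of all genes tested, -12.48 ± 0.39 (FDR 3.07e-09), and its HTHA values were lowest in Rhesus 3 (184 CPM) and Rhesus 10 (214 CPM) and highest in Rhesus 8 (1900 CPM). *SST*, somatostatin, which inhibits growth hormone release and also marks many GABA neurons, had 2.28 to 11.7 CPM in THA (median 6.80) and 128 to 552 CPM in HTHA (median 231). Every HTHA sample exceeded every THA sample (log2FC -5.27 ± 0.37, FDR 9.62e-07). *TAC3*, neurokinin B of arcuate neurons that drive gonadotropin pulses, had 6.70 to 24.6 CPM in HTHA against a THA median of 0.179 CPM (log2FC -4.42 ± 0.66). *GNRH1*, gonadotropin-releasing hormone, had medians of 3.55 CPM in HTHA and 0.900 CPM in THA, overlapping values and a log2FC of -2.16 ± 0.41 (FDR 0.00142).

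*CRH*, corticotropin-releasing hormone, went the other way. It had 314 to 463 CPM in THA (median 334) and 4.82 to 97.1 CPM in HTHA (median 25.1), with no overlap (log2FC 3.87 ± 0.36, FDR 7.51e-06). The sample of Rhesus 8 was the highest in both regions. *TRH*, thyrotropin-releasing hormone, had 43.1 to 150 CPM in THA and 36.6 to 142 CPM in HTHA and was not called (log2FC -0.22 ± 0.27, FDR 0.536).

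*NPVF*, the precursor of gonadotropin-inhibitory RFamide peptides, did not pass the filter. It had 0 to 0.715 CPM in THA and 0.762 to 77.6 CPM in HTHA, where Rhesus 11 and Rhesus 3 were lowest (log2FC -6.98 ± 0.52 without the filter, FDR 4.9e-08). *KISS1*, kisspeptin, and *GHRH*, growth hormone-releasing hormone, reached 2.65 and 5.23 CPM in the HTHA sample of Rhesus 8, their highest, and at most 0.827 and 0.627 CPM in the other 7.

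Of 22 peptide genes of arousal and appetite, 18 were matched and 16 passed the filter, with 11 higher in HTHA and 2 higher in THA and a median log2FC of -2.25. *HCRT* had a log2FC of -10.88 ± 0.33 (FDR 3.07e-09). *PMCH*, melanin-concentrating hormone, another peptide of the lateral hypothalamus, had 0 to 1.35 CPM in THA (median 0.246) and 1.78 to 1737 CPM in HTHA (median 557), with a log2FC of -10.57 ± 0.66 (FDR 4.44e-07). In HTHA, *HCRT* had 164 to 311 CPM in Rhesus 3, 4, 7, 8 and 10 and 16.9, 24.3 and 2.88 CPM in Rhesus 2, 6 and 11. These 3 animals had 62.5, 30.5 and 1.78 CPM of *PMCH*, below the 301 to 1737 CPM of the same other 5. These 2 lateral hypothalamic peptides were thus low in the same 3 HTHA samples. Rhesus 2, 6 and 11 are all mid-aged, and the set with high levels held every young animal and the mid-aged Rhesus 3. How much of this split went with age stage and how much with the piece cut was not tested.

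Across the 8 HTHA samples, log2(CPM + 1) of *HCRT* and *PMCH* gave a Pearson r of 0.937 (exact permutation p = 0.00504, two-sided, 0.0151 after Benjamini-Hochberg adjustment over the 3 pairs computed) and a Spearman rho of 0.667 (exact permutation p = 0.0831, adjusted 0.249). Without Rhesus 2 and 11, the samples farthest from the median of *HCRT*, r was 0.822. The samples fall into the set of 3 and the set of 5 given above, and among the 5 with high levels r was -0.45, so the pooled value rests on the gap between the sets and the relation within a set cannot be tested. *OXT* varied without relation to *HCRT* that could be shown, and it was not paired with *PMCH*. With *HCRT* its r was -0.093 (rho 0.167, exact permutation p = 0.839 and 0.703, the same after adjustment). That r became 0.570 without Rhesus 3 and 10. With *POMC*, *OXT* had an r of 0.335 (rho 0.167, exact permutation p = 0.421 and 0.703, adjusted 0.631 and 0.703), and 0.035 without those 2 animals. Pairs with vasopressin and agouti-related peptide were not analysed here.

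*PARPBP*, a gene named for binding the repair enzyme PARP1, was among the 12 named genes with the largest log2FC toward HTHA (-10.03 ± 0.74). It had 65.8, 914, 2014, 29.7, 1814, 312, 830 and 2.03 CPM in the HTHA samples of Rhesus 2, 3, 4, 6, 7, 8, 10 and 11. Those values track *PMCH* animal by animal. *PARPBP* neighbours *PMCH* in the RefSeq annotation, and as the counting options for overlapping genes are not known, its counts cannot be told apart from reads of *PMCH* and are given as uncertain.

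**Figure D3:**
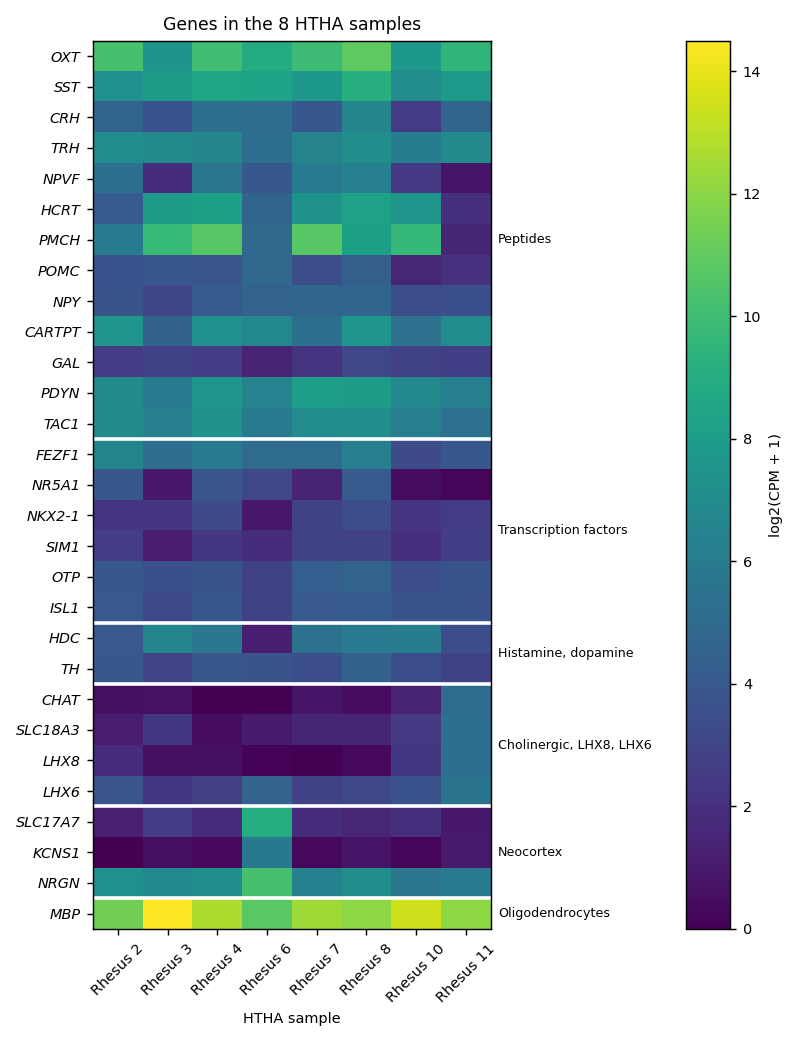
Rows are genes and columns the 8 HTHA samples, and the colour is log2(CPM + 1). Rhesus 11 is dark for *HCRT* and *PMCH* and bright for *CHAT*, *SLC18A3*, *LHX8* and *LHX6*, Rhesus 6 is bright for the neocortical genes (501 CPM of *SLC17A7*), and Rhesus 3 has the most *MBP* (23200 CPM).

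Some peptides of the arcuate nucleus were also called. *POMC*, whose product is cut into melanocortins that curb feeding, had 0.673 to 2.91 CPM in THA (median 1.74) and 1.95 to 29.4 CPM in HTHA (median 12.4). The groups overlapped (log2FC -2.59 ± 0.34, FDR 0.00012), Rhesus 10 and Rhesus 11 being lowest in HTHA. *NPY*, neuropeptide Y, which stimulates feeding, had 0.240 to 1.14 CPM in THA and 7.23 to 25.7 CPM in HTHA without overlap (log2FC -4.84 ± 0.25, FDR 1.14e-07). *CARTPT*, a satiety peptide made in both regions, had medians of 39.9 CPM in THA and 118 CPM in HTHA and was called with overlapping values (log2FC -1.75 ± 0.52, FDR 0.0176). *GAL*, galanin, had a log2FC of -3.47 ± 0.36 at HTHA levels of 1.67 to 7.57 CPM.

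*PDYN*, *PENK* and *TAC1*, opioid and tachykinin precursors, were also higher in HTHA. *PDYN*, prodynorphin, had 2.90 to 21.5 CPM in THA (median 7.28) and 58.8 to 270 CPM in HTHA (median 114), and *PENK*, proenkephalin, had 4.04 to 22.8 CPM (median 14.8) against 76.2 to 278 CPM (median 178). Neither overlapped (log2FC -3.91 ± 0.45 and -3.58 ± 0.27, FDR 4.15e-05 and 1.76e-06). *TAC1*, the substance P precursor, had 0.505 to 36.4 CPM in THA and 42.3 to 174 CPM in HTHA, with a log2FC of -3.38 ± 0.69 (FDR 0.00227). *CCK*, cholecystokinin, and *GRP*, gastrin-releasing peptide, were higher in HTHA by log2FC of -1.77 and -1.92. *CCK* had its highest value in both regions in Rhesus 6 (22.7 CPM in THA and 118 CPM in HTHA). *VIP*, a peptide of the suprachiasmatic nucleus and of cortical interneurons, reached 31.97 CPM in the HTHA sample of Rhesus 6 and 0.489 to 5.34 CPM in the other 7, and had a log2FC of -5.57 without the filter and -4.16 when Rhesus 6 was also left out (FDR 2.7e-06 and 1.3e-06).

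The 2 peptide genes higher in THA were *NTS*, neurotensin, and *PTHLH*, parathyroid hormone-like hormone. *NTS* had 483 to 885 CPM in THA (median 598) and 6.69 to 55.6 CPM in HTHA (median 40.2), and the lowest THA sample lay far above the highest HTHA sample. Its log2FC was 4.34 ± 0.31 (FDR 1.2e-06). *PTHLH* had 23.8 to 71.9 CPM in THA (median 36.2) and 1.42 to 5.96 CPM in HTHA (median 2.47), with a log2FC of 3.77 ± 0.22 (FDR 2.63e-07) and 4.10 without Rhesus 6. *PNOC*, *NMB* and *BDNF*, precursors of nociceptin, neuromedin B and a neurotrophin, were not called (log2FC 0.32, -0.64 and 0.19).

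Of 11 tested genes that process peptides and fill secretory granules, 2 were higher in HTHA and none in THA, with a median log2FC of -0.73. *PCSK1*, a convertase that cuts prohormones, had 35.9 to 84.3 CPM in THA (median 61.9) and 162 to 488 CPM in HTHA (median 339). The groups did not overlap (log2FC -2.37 ± 0.24, FDR 1.43e-05), whereas the related *PCSK2* was level between them, with medians of 130 and 123 CPM (log2FC 0.11 ± 0.14, FDR 0.548). *CHGB*, chromogranin B, just passed the fold threshold (log2FC -1.02 ± 0.13, FDR 8.34e-05) and did not without Rhesus 6 (-0.96). *SCG2*, secretogranin II, just missed it with all animals (-0.94) and passed it without Rhesus 6 (-1.03, FDR 0.0017).

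Receptors for peptide hormones were a list of 34, of which 29 were matched and 24 passed the filter. HTHA was higher for 14 and THA for 2, with a median log2FC of -1.44, and without Rhesus 6 HTHA was higher for 15 of 25 tested. *CALCR*, the calcitonin and amylin receptor, had the largest difference among those tested, with 0.344 to 1.66 CPM in THA (median 0.703) and 38.6 to 219 CPM in HTHA (median 122). Its lowest HTHA value was in Rhesus 6, and even that one exceeded all of THA (log2FC -7.03 ± 0.35, FDR 9.16e-08). *RAMP3*, which turns CALCR into an amylin receptor, was higher in THA (log2FC 1.10 ± 0.15), with medians of 12.1 and 5.93 CPM. *GALR1*, a galanin receptor, had 3 counts in THA and 1.27 to 6.95 CPM in HTHA, a ratio of 108 with a counting interval of 36.5 to 525.

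*MC4R*, the melanocortin receptor of appetite control, had 0.363 to 1.86 CPM in THA (median 0.919) and 1.67 to 14.7 CPM in HTHA (median 6.86). The lowest HTHA value, in Rhesus 6, lay within the THA range (log2FC -2.81 ± 0.29, FDR 2e-05). *LEPR*, the leptin receptor, had log2FC -1.61 ± 0.27, and the neuropeptide Y receptors *NPY1R*, *NPY2R* and *NPY5R* had -1.11, -3.37 and -1.33, all with overlapping values. *GHSR*, the ghrelin receptor, did not pass the filter and had 1 THA count against 0.731 to 2.42 CPM in HTHA, a ratio of 143 (25.2 to 5679).

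*SSTR2*, a somatostatin receptor, had 0.999 to 2.88 CPM in THA (median 1.84) and 6.94 to 25.1 CPM in HTHA (median 17.1), and *OXTR*, the oxytocin receptor, had 0.922 to 2.48 CPM (median 2.14) against 2.93 to 9.14 CPM (median 5.97). Both pairs of ranges were separate, with log2FC of -3.12 ± 0.18 (FDR 2.59e-07) and -1.54 ± 0.21 (FDR 0.000164). *NTSR1*, the neurotensin receptor, was higher in HTHA (log2FC -2.69 ± 0.44, FDR 0.000531), in the opposite direction to its ligand *NTS*. *CRHR1*, the receptor of CRH, was higher in THA like its ligand, with 11.8 to 29.1 CPM against 2.74 to 18.1 CPM and a log2FC of 1.93 ± 0.28 (FDR 0.000237). Its highest HTHA value was in Rhesus 6, without which the log2FC was 2.27. The receptors of the lateral hypothalamic peptides that passed the filter, *HCRTR1*, *HCRTR2* and *MCHR1*, were not called (log2FC 0.07, -0.95 and 0.05, FDR 0.666, 0.0554 and 0.814).

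Of 7 genes of steroid hormone action, the 3 that passed the filter were not called with all animals, and 1 of them was higher in HTHA without Rhesus 6. The corticosteroid receptors *NR3C1* and *NR3C2* had log2FC of 0.32 and 0.13. The 4 at low levels were higher in HTHA without the filter, and 5 of the 7 were when Rhesus 6 was also left out. *ESR1*, oestrogen receptor alpha, had 0.111 to 0.545 CPM in THA and 0.586 to 3.80 CPM in HTHA (log2FC -2.90 ± 0.32, FDR 3.6e-06), and *CYP19A1*, the aromatase that makes oestrogen, had 0 to 0.445 CPM against 0.0977 to 9.19 CPM, highest in Rhesus 6 (-4.51 ± 0.66, FDR 6.4e-05). *PGR*, the progesterone receptor, and *ESR2* had log2FC of -2.86 and -3.59. Of the 3 opioid receptors tested, *OPRM1*, the mu receptor, was higher in THA (3.81 to 16.2 against 0.782 to 5.68 CPM, log2FC 1.56 ± 0.28, FDR 0.000942). *OPRK1* lay just under the fold threshold (0.99 ± 0.27), and *OPRL1* was level (0.08 ± 0.10). The receptor was thus higher in THA for *OPRM1* while the opioid precursors *PENK* and *PDYN* were higher in HTHA.

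The genes of fast transmission differed in both directions. *SLC17A6*, the vesicular glutamate transporter of subcortical neurons, had 352 to 1077 CPM in THA (median 912) and 97.4 to 265 CPM in HTHA (median 171). The regions did not overlap (log2FC 2.25 ± 0.21, FDR 6.91e-06), and the lowest THA value was that of Rhesus 8. *GAD2*, a GABA-synthesizing enzyme, and *SLC32A1*, the vesicular GABA transporter, were higher in HTHA by log2FC of -1.34 ± 0.20 (FDR 0.000239) and -1.27 ± 0.20 (FDR 0.000334), with medians of 157 and 451 CPM for *GAD2* and 43.6 and 100 CPM for *SLC32A1*. *GAD1* differed by less (-0.73 ± 0.19). All 3 had their lowest THA value in Rhesus 8 and their highest HTHA value in Rhesus 11. *SLC17A7* was not called (log2FC -1.62 ± 0.98, FDR 0.209). Of the 8 genes tested in this group, 1 was higher in THA and 2 in HTHA, and without Rhesus 6 the counts were 2 and 2.

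Of 10 genes of monoamine and histamine neurons, 6 passed the filter, and 4 of these were higher in HTHA. *HDC*, the histamine-synthesizing enzyme of the tuberomammillary nucleus, had 0.334 to 2.44 CPM in THA (median 1.70) and 1.36 to 100 CPM in HTHA (median 46.8). The HTHA samples of Rhesus 6, 11 and 2 were the lowest, at 1.36, 9.91 and 15.8 CPM, and were the same 3 as for *HCRT* and *PMCH*. The log2FC was -4.45 ± 0.61 (FDR 0.000152) and -4.83 without Rhesus 6. *TH*, which makes the dopamine precursor, had 0.0801 to 1.00 CPM in THA (median 0.375) and 6.01 to 20.98 CPM in HTHA (median 11.1). *DDC* and *SLC18A2*, the next enzyme and the vesicular monoamine transporter, went with it, with log2FC of -4.73 ± 0.35, -6.28 ± 0.33 and -4.13 ± 0.33 for the 3 genes and no overlap between the groups. The breakdown enzymes *MAOA* and *MAOB*, which many cell types make, were not called (log2FC -0.29 and -0.19).

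Cholinergic genes gave 6 of 13 tested higher in THA and 3 higher in HTHA, with a median log2FC of 0.95. All 5 nicotinic subunits called were higher in THA. *CHRNA4*, which forms the main brain receptor with *CHRNB2*, had 75.9 to 157 CPM in THA (median 114) and 3.35 to 8.62 CPM in HTHA (median 6.13), and *CHRNB2* had 178 to 225 CPM (median 190) against 38.6 to 96.0 CPM (median 67.6). Both were separate (log2FC 4.19 ± 0.19 and 1.56 ± 0.12, FDR 5.56e-08 and 1.93e-06). *CHRNA3* and *CHRNA5*, which lie in 1 gene cluster and are known from the habenula, had log2FC of 2.26 ± 0.21 and 2.33 ± 0.21. *CHRNA7* and *CHRNA6* were not called (-0.17 and -0.28).

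The muscarinic receptors split. *CHRM3* was higher in THA, with 118 to 160 CPM against 14.5 to 109 CPM (log2FC 1.95 ± 0.26, FDR 0.000105), and *CHRM5* was higher in HTHA, with 0 to 1.28 CPM against 3.13 to 10.1 CPM (log2FC -3.71 ± 0.45, FDR 6.2e-05). *CHRM1* was higher in HTHA (0.430 to 1.59 against 3.39 to 112 CPM, log2FC -3.35 ± 0.51), and its highest value was that of Rhesus 6, the other 7 HTHA samples having at most 8.89 CPM. Without that animal its log2FC was -2.65 (FDR 2.4e-05). The genes of cholinergic neurons themselves were highest in 1 dissection. *CHAT*, which makes acetylcholine, had 34.1 CPM in the HTHA sample of Rhesus 11 and at most 1.74 CPM in the other 15 samples, and *SLC18A3*, its vesicular transporter, had 38.5 CPM there and at most 4.31 CPM elsewhere. *CHAT* did not pass the filter, and *SLC18A3* was called higher in HTHA beside *CHRM1* and *CHRM5*.

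Subunits of the same receptor went in both directions. Of 12 subunits of the GABA-A receptor tested, 5 were higher in THA and 3 in HTHA, with a median log2FC of 0.08. *GABRD*, the delta subunit of extrasynaptic receptors, had 14.1 to 33.8 CPM in THA (median 27.9) and 0.686 to 2.37 CPM in 7 HTHA samples, with 78.5 CPM in that of Rhesus 6. Its log2FC was 3.65 ± 0.67 (FDR 0.00109) with all animals and 4.44 (FDR 1.2e-08) without Rhesus 6. *GABRA4*, which pairs with delta, had 19.2 to 54.2 CPM in THA (median 40.6) and a median of 6.79 CPM in HTHA (log2FC 2.11 ± 0.36, FDR 0.000749). *GABRA5* had 207 to 310 CPM against 46.8 to 124 CPM (log2FC 1.64 ± 0.20, FDR 5.96e-05), without overlap, and *GABRB2* shared its log2FC of 1.64.

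The subunits higher in HTHA were *GABRE*, epsilon, *GABRG1* and *GABRG3*. *GABRE* had 11.7 to 24.8 CPM in THA (median 18.7) and 21.2 to 106 CPM in HTHA (median 75.1), with overlap through Rhesus 6 alone (log2FC -1.84 ± 0.19, FDR 1.78e-05). *GABRG3* had 0.182 to 1.77 CPM against 2.25 to 8.22 CPM (log2FC -2.97 ± 0.30, FDR 1.69e-05). *GABRA3* was not called (log2FC -0.21). Of 5 genes for glycine receptors and transporters, *GLRA1*, the adult spinal receptor subunit, was higher in HTHA (log2FC -2.90 ± 0.50, FDR 0.000712) and none was higher in THA.

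**Figure D4:**
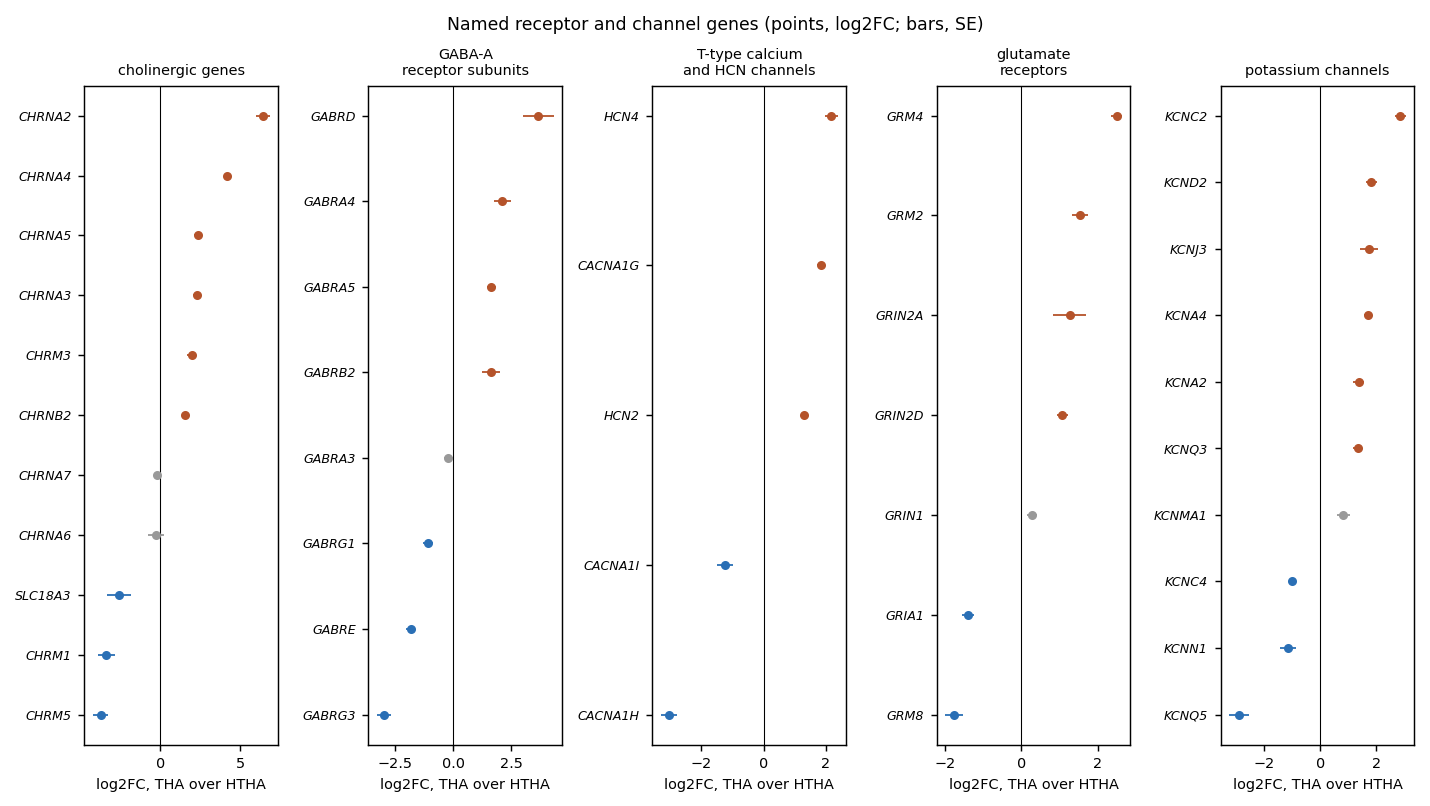
Each panel shows the tested genes of 1 list that are named in the text. The x axis is log2FC (THA over HTHA), with points for the estimate and bars for the SE derived from the test. Orange points are called higher in THA, blue points higher in HTHA and grey points neither. The nicotinic subunits *CHRNA2* (6.39) and *CHRNA4* (4.19) lie far to the right and the muscarinic *CHRM5* (-3.71) to the left, and *CACNA1G* (1.83) and *CACNA1H* (-3.03) lie on opposite sides of 0.

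Of 24 glutamate receptor genes, all of which passed the filter, 5 were higher in THA and 3 in HTHA, with a median log2FC of -0.05. Without Rhesus 6 the counts were 6 and 3 and the median was 0.14. *GRM4*, a presynaptic metabotropic receptor, had 70.0 to 96.9 CPM in THA (median 86.1) and 10.8 to 23.5 CPM in HTHA (median 14.9). The groups were separate (log2FC 2.48 ± 0.13, FDR 1.22e-07). *GRM2* was also higher in THA (1.52 ± 0.21), while *GRM8* was higher in HTHA (-1.76 ± 0.23, FDR 9.71e-05). Among ionotropic genes, the NMDA subunits *GRIN2D* and *GRIN2A* were higher in THA (1.06 ± 0.14 and 1.26 ± 0.43). The AMPA subunit *GRIA1* was higher in HTHA, with 85.5 to 142 CPM against 147 to 411 CPM (log2FC -1.39 ± 0.16, FDR 4.31e-05). *GRIN1*, the subunit all NMDA receptors share, was not called (0.27 ± 0.12).

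The T-type calcium channels that carry burst firing were divided by subtype. *CACNA1G*, the subtype of relay neurons, had 292 to 446 CPM in THA (median 357) and 69.9 to 128 CPM in HTHA (median 103). *CACNA1H* had 5.76 to 11.7 CPM in THA (median 8.50) and 25.5 to 117 CPM in HTHA (median 73.8). Neither overlapped, and the directions were opposite (log2FC 1.83 ± 0.12 and -3.03 ± 0.25, FDR 6.42e-07 and 3.57e-06). *CACNA1I*, which is known from the reticular nucleus, was higher in HTHA (4.45 to 19.7 against 14.6 to 36.9 CPM, log2FC -1.25 ± 0.26, FDR 0.0024). The pacemaker channels *HCN2* and *HCN4* were higher in THA by log2FC of 1.29 ± 0.08 (FDR 5.72e-07) and 2.17 ± 0.21 (FDR 9.8e-06), so that all 5 genes tested in this list were called, 3 toward THA and 2 toward HTHA.

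Of 25 potassium channel genes tested, 7 were higher in THA and 3 in HTHA, with a median log2FC of 0.32, and without Rhesus 6 the counts were 8 and 2. *KCNC2*, a channel of fast-spiking neurons, had 705 to 1321 CPM in THA (median 1235) and 82.3 to 291 CPM in HTHA (median 142). It was separate in every animal (log2FC 2.86 ± 0.19, FDR 7.04e-07), with the lowest THA value in Rhesus 8. The A-type channels *KCND2* and *KCNA4* had log2FC of 1.83 ± 0.19 and 1.72 ± 0.15, and *KCNJ3*, *KCNA2* and *KCNQ3* had 1.74, 1.38 and 1.34. *KCNQ5*, an M-current channel like *KCNQ3*, was higher in HTHA (1.85 to 10.0 against 16.5 to 198 CPM, log2FC -2.91 ± 0.34, FDR 5.08e-05), with 198 CPM in Rhesus 6 and at most 51.1 CPM in the rest. *KCNN1* lost its call without Rhesus 6 (log2FC -1.15 with and -0.82 without), *KCNC4* stood at the threshold with -1.01, and *KCNMA1* gained a call toward THA without that animal (0.83 and 1.12).

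Among 7 sodium channel genes tested, 2 were higher in THA, 1 of them *SCN1A* (log2FC 1.18 ± 0.18), and *SCN9A* and *SCN3A* were higher in HTHA. *SCN9A*, best known from pain neurons and also active in hypothalamic neurons, had 6.88 to 13.97 CPM in THA (median 8.73) and 19.5 to 66.5 CPM in HTHA (median 49.1), and *SCN3A* had 45.4 to 77.0 CPM (median 64.0) against 94.0 to 252 CPM (median 209). The groups did not overlap for either (-2.24 ± 0.29 and -1.51 ± 0.17, FDR 0.000105 and 3.1e-05). *SCN2A* and *SCN8A* were not called (log2FC -0.16 and 0.64).

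Trans-synaptic organizers gave 2 of 19 tested higher in THA and 4 higher in HTHA, with a median log2FC of -0.36. *NTNG1*, netrin-G1, an axonal protein of thalamocortical neurons, had 734 to 1113 CPM in THA (median 881) and 35.5 to 94.1 CPM in HTHA (median 48.9). The log2FC was 4.02 ± 0.16 (FDR 2.35e-08) with every THA sample above every HTHA sample. Its postsynaptic partner *LRRC4C* had the opposite direction (28.6 to 48.7 against 60.4 to 99.7 CPM, log2FC -1.14 ± 0.11, FDR 7.78e-06), as did *NTNG2* with all animals (-1.12), though not as a call without Rhesus 6 (-0.84). *LRRTM1*, a postsynaptic protein, was higher in THA (85.01 to 149 against 18.1 to 31.7 CPM, log2FC 2.43 ± 0.15, FDR 4.34e-07). *CBLN1*, a secreted cerebellin, was higher in HTHA (-1.66 ± 0.37, FDR 0.00382), but the THA sample of Rhesus 8 had 115.4 CPM against a THA median of 17.3 CPM. *C1QL2* was the other organizer higher in HTHA (-1.15 ± 0.21).

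Calcium-binding proteins that divide neurons into classes differed in 4 of 9 genes tested, with a median log2FC of 0.55. *PVALB*, parvalbumin, had 26.5 to 145 CPM in THA (median 55.3) and 0.102 to 34.8 CPM in HTHA (median 2.76), with the highest HTHA value in Rhesus 6 (log2FC 3.97 ± 0.60, FDR 0.000285). *CALB2*, calretinin, was higher in HTHA (-1.26 ± 0.32, FDR 0.00877), and *CALB1*, calbindin, was not called, with medians of 189 and 216 CPM (-0.21 ± 0.27). *NECAB1* had 832 to 1122 CPM in 7 THA samples and 144 CPM in that of Rhesus 8, against 92.6 to 497 CPM in HTHA (1.86 ± 0.25, FDR 0.000147). *CAMK2D*, a calcium and calmodulin kinase subunit, was higher in THA (1.25 ± 0.11), and *CAMK2A*, the subunit of cortical excitatory neurons, reached 1939 CPM in the HTHA sample of Rhesus 6 and was called toward THA without that animal alone (0.99 and 1.37). *SCGN*, secretagogin, another calcium-binding protein and 1 of the 12 named genes, had 4.79 to 46.5 CPM in HTHA and 3 THA counts, a ratio of 691 (236 to 3352). *GPR101*, an orphan receptor and the last of the 12, had 5.77 to 41.4 CPM in HTHA and 3 THA counts, a ratio of 568 (194 to 2759).

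*NEFM*, *NEFL* and *NEFH*, neurofilament genes, which support large axons, were higher in THA. *NEFM* had 1187 to 1628 CPM in THA (median 1259) and 362 to 537 CPM in HTHA (median 404), with *NEFL* and *NEFH* also separate (log2FC 1.67 ± 0.12, 1.29 ± 0.10 and 1.58 ± 0.12). *HAPLN4*, a link protein of perineuronal nets, the matrix around fast-spiking neurons, was higher in THA (359 to 504 against 47.2 to 120 CPM, log2FC 2.19 ± 0.14, FDR 4.07e-07). *ACAN*, the aggrecan core of such nets, and the link protein *HAPLN1* were higher in HTHA (-1.39 ± 0.26 and -1.50 ± 0.29) at THA medians of 1.94 and 2.57 CPM. In all, 4 of the 10 genes tested in this list were higher in THA and 2 in HTHA, with a median log2FC of 0.29.

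Markers of neurons as a whole were also unequal between the regions. The 10 listed summed to 10646 to 13149 CPM in THA and 5401 to 10002 CPM in HTHA, higher in THA in 8 of 8 animals, and the highest HTHA sum was that of Rhesus 6. *SNAP25* and *SYT1*, both of the synaptic release machinery, and *GAP43*, a growth cone protein, were called toward THA (log2FC 1.05, 1.23 and 1.04), whereas *RBFOX3*, the neuronal nucleus antigen, was called toward HTHA with all animals (-1.17) and not without Rhesus 6 (-0.85). The other 6 were not called, with log2FC from -0.25 to 0.68. The part of neuronal content in the receptor and channel differences given above was not tested.

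Glial and vascular markers showed few calls. None of 10 oligodendrocyte genes was called although their median log2FC was 0.68. Their summed level was 12944 to 25955 CPM in THA and 3700.5 to 37351 CPM in HTHA, where Rhesus 6 was lowest and Rhesus 3 highest. Astrocyte markers summed to 3159 to 5278 CPM in THA and 4395 to 7462 CPM in HTHA, and 1 of 9, *GFAP*, the astrocyte filament, was higher in HTHA (log2FC -1.04 ± 0.28, FDR 0.0115). None of the 5 tested genes each for oligodendrocyte precursors and microglia, and none of 8 for endothelial cells and pericytes, was called. Ependymal and tanycyte genes gave 2 of 9 in each direction, *DNAH9* and *CRYM* toward THA and *RSPH1* and *FRZB* toward HTHA, with *DIO2* having a CPM of 0.104 at most.

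Striatal markers summed to 160 to 236 CPM in THA and 159 to 220 CPM in HTHA, with *DRD1* called toward THA (log2FC 1.72) and *DRD2*, *RGS9* and *RXRG* toward HTHA (-1.94, -1.51 and -2.21). Of 4 habenular genes tested, *CHRNA3* was higher in THA and *NWD2* and *VAV2* were higher in HTHA, and *GPR151*, a defining habenular gene, had at most 8.02 CPM in THA and 0.615 CPM in HTHA. Neocortical markers gave 1 of 6 toward THA, *CUX2* (1.71), and 2 toward HTHA, *NRGN* (-2.17) and *LAMP5* (-1.26), and the call of *LAMP5* was lost without Rhesus 6 (-0.89). *KCNV1* gained a call toward THA without it (1.12, against 0.64). Choroid plexus genes gave 2 of 6 toward THA, *TTR* and *OTX2*, and 1, *KL*, toward HTHA. Anterior pituitary markers summed to at most 11.9 CPM in THA and 16.01 CPM in HTHA, with neither of 2 tested called and with *PRL*, prolactin, at 9.32 CPM in the HTHA sample of Rhesus 11, and blood markers to at most 0.711 CPM.

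The 8 animals allowed a test of whether the regional difference depended on age stage or sex. No gene was called for age stage, with 1070 genes at an unadjusted p under 0.05 and a smallest FDR of 0.555, and none for sex, with 644 genes and a smallest FDR of 0.686 (edgeR quasi-likelihood test of the interaction). DESeq2's likelihood-ratio test called 5 genes for age stage, *PTER*, *C1QL3*, *TAC1*, *GPC3* and 1 gene without a symbol, and 1 for sex, also without a symbol. With no filter, edgeR called *PTER*, *C1QL3*, *TAC1* and *GPC3* for age stage, and without Rhesus 6 it called *PTER* and *C1QL3*. *PTER* and *C1QL3* lie close to each other in the RefSeq annotation. *C1QL3*, a synaptic organizer, had 34.9 to 62.7 CPM in THA and 10.2 to 88.5 CPM in HTHA in mid-aged animals, and 10.4 to 22.5 CPM and 43.4 to 81.8 CPM in young animals. In the young, HTHA exceeded THA in all 4, and in the mid-aged it did so in Rhesus 6 alone. *TAC1* in THA had 9.29 to 36.4 CPM in the mid-aged and 0.505 to 7.15 CPM in the young.

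Seen beside the rest of the brain, as a description over the means of 8 animals in 16 region groups, 320 of the 751 genes called higher in THA (42.6%) had their highest mean in THA. For the 1003 called higher in HTHA, HTHA was the highest group for 131 (13.1%), and the pituitary (PIT) for 212 (21.1%). A call toward either region all but excludes the opposite region as the highest group. The same shares over all genes tested were not computed, so these percentages describe the called genes only and have no background to be read against. *CASQ2*, *SHOX2*, *PTPN3*, *TCF7L2* and 6 more of the 12 named THA genes were highest in THA, with *CASQ2* at 101 CPM followed by the cerebellum (CB) at 23.6 CPM, and *ATP2A3* at 138 CPM followed by CB at 103 CPM. *SMPX* was highest in CB and *GATA3* in the ventral tegmental area (VTA). *NTS* had 620 CPM in THA and was next highest in HTHA (33.5 CPM). *CRH* in THA (339 CPM, SD 48.3 over animals) came second by its mean to the medulla oblongata (MO). The MO mean of 353 CPM had an SD of 560, so the order of the 2 is not firm.

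*OXT*, *HCRT*, *PMCH*, *FEZF1*, *OTP*, *HMX3*, *SIM1*, *NKX2-1* and *PARPBP* were highest in HTHA among the 12 named HTHA genes. *OXT* followed at 18.3 CPM in the globus pallidus (GP) and *HCRT* at 1.26 CPM in the striatum (STR). *DLX1* and *SCGN* were highest in the olfactory bulb (OB) and *GPR101* in STR. *NKX2-1* had 4.88 CPM in HTHA (SD 2.75) and 3.68 CPM in PIT (SD 7.41). *CACNA1H* and *POMC* were highest in PIT, and *PDYN*, *PENK*, *TAC1* and *NPY* in STR.

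**Figure D5:**
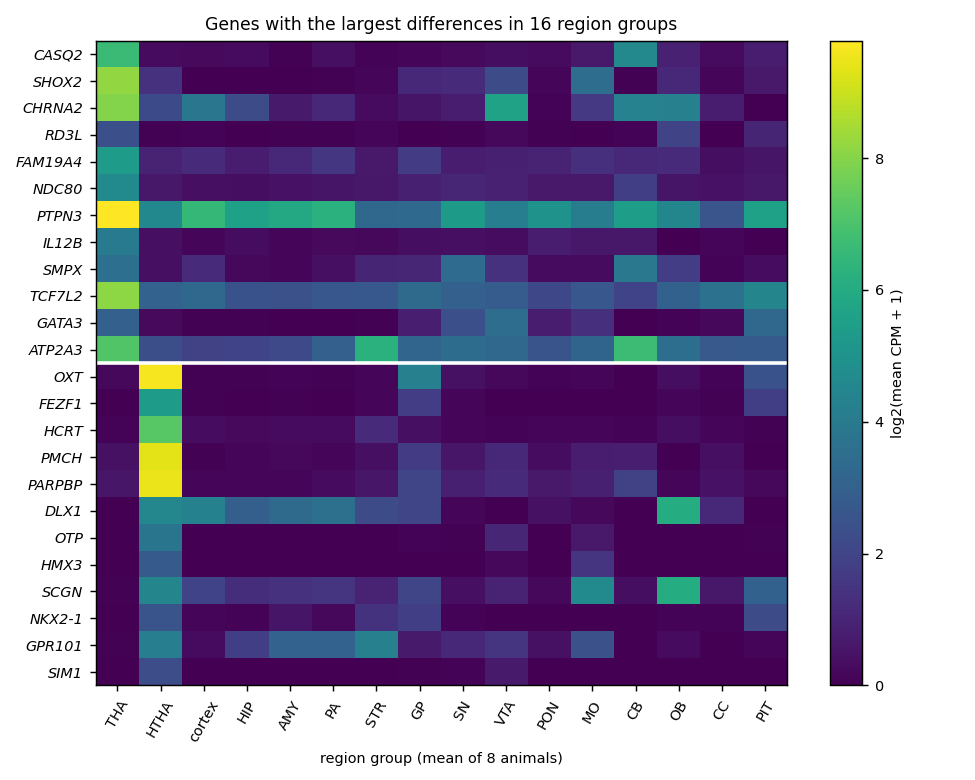
Rows are the 12 named genes of each direction (THA above the white line, HTHA below), columns the 16 region groups, and the colour is log2 of the mean CPM + 1 over the animals. *CASQ2*, *SHOX2* and *TCF7L2* are bright in THA and *OXT*, *HCRT* and *PMCH* in HTHA, while *DLX1* and *SCGN* are brighter in OB and *ATP2A3* is also bright in CB (103 CPM).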

How the data were processed

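The authors removed ribosomal RNA, made directional libraries and sequenced them on an Illumina HiSeq X system. They checked reads with FastQC 0.11.4, trimmed them with Trim Galore 0.4.4, aligned them to the Mmul rhesus genome with HISAT2 2.0.5 and counted reads per Ensembl gene with HTSeq 0.6.1. What they deposited are raw counts per gene, not normalized. How strand and overlaps were handled is not stated, so overlapping and neighbouring genes may share reads. Of 30807 genes, 17572 took their symbol from a reference table and 583 from the study's supplement.

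The 16 counts columns of THA and HTHA were assigned by animal and region in the labels, and groups by the labels alone. Genes passing filterByExpr were tested with edgeR 4.0.16 (R 4.3.3, limma 3.58.1, TMM, quasi-likelihood F test) with the animal as block, and p-values were adjusted by the Benjamini-Hochberg method over all genes tested; an FDR below 0.05 and an absolute log2FC above 1 made a call. The filter left out 9112 of the 23941 genes with a count. The pairing comes from the animals: deviations of the 2 samples of an animal from their region means correlated at 0.148 to 0.638. Interactions of region with age stage and sex were tested in 1 model. Each animal gave 1 sample per region. With the animal as block, p-values of the region tests measure how the difference between the 2 regions varied from animal to animal. That variation includes differences in the piece cut. CPM of the 16 region groups were scaled by TMM over all groups and differ slightly from those of the 2 regions. DESeq2 1.42.0 was an alternative, and exact permutation tests used scipy 1.17.1 (Python 3.11.15).

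Named genes were the 4 markers, the 2 genes marking the mixed sample, for each direction the 12 genes with a symbol, at least 1 CPM in the higher region and the largest absolute log2FC among genes called and changed alike in all 8 animals, and members of the lists described; some members counted in the lists are not reported here. *C1QL3*, *PTER* and *GPC3* were named after their values were seen. The members and lists were chosen with earlier results of these data known. With 200 genes changed 4-fold in simulated counts, the test of THA against HTHA recovered 192 of them and called 0 others among 14701 genes, and the age interaction recovered 164 with 7 others among 14703. In the simulated counts the other genes had no region difference and no sample was mixed, so these rates hold for that setting only. Intervals and floors (3 counts per library) cover counting error only.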

Additional observations from a re-analysis of the deposited data

Results flagged for a closer look

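Single samples stood apart from the other 7 of their region by Dixon's criterion for 91 of 406 gene and region groups checked (207 genes). For normally distributed values such a gap arises in about 1 in 20 groups, and genes of 1 sample are not independent of each other. The criterion was applied to untransformed CPM and to groups almost wholly at 0, such as *OLIG3* in HTHA, where 1 count can be flagged. The genes were also chosen with earlier results known, so 91 of 406 cannot be read against 1 in 20. All values below are CPM.

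The HTHA sample of Rhesus 6 accounted for 43 of the 91, each as the highest of the 8 HTHA samples. They were *SLC17A7* (500.5 CPM), *KCNS1* (57.7), *RORB* (35.4), *LHX2* (37.3), *CHRNA2* (15.15), *PTPN3* (66.2), *FAM19A4* (2.40), *SMPX* (1.46), *RD3L* (0.209), *ARNT2* (507), *CCK* (118) and *VIP* (31.97). Of channels and receptors it also held *CRHR1* (18.1), *NR3C2* (38.9), *CHRNA7* (15.98), *CHRM3* (109), *CHRM1* (112), *GABRD* (78.5), *GABRA4* (42.8), *GABRB2* (119), *GRM2* (35.7), *GRIN2A* (52.0), *GRIN1* (580) and *KCNJ3* (69.7). Further values were *KCNA2* (664), *KCNQ5* (198), *KCNN1* (39.2), *KCNMA1* (6.58), *SCN1A* (355), *SCN8A* (164), *NTNG2* (19.5), *PVALB* (34.8), *NECAB1* (497) and *CAMK2A* (1939). The rest were *HAPLN1* (17.03), *SNAP25* (4177), *RBFOX3* (230.5), *DIO2* (0.1045), *DRD1* (51.8), *CUX2* (85.5), *NRGN* (1245), *LAMP5* (34.4) and *KCNV1* (57.4). The part of neocortical tissue in these values was not tested, and the summed neocortical markers of that sample are given above.

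The HTHA sample of Rhesus 11 was set apart by *GBX2* (1.525 CPM), *TTR* (17.45), *LHX6* (47.1), *LHX8* (37.6), *CHAT* (34.1), *SLC18A3* (38.5), *SLC32A1* (143) and *NEFH* (300.1), each its region's highest value. Among the other HTHA samples, that of Rhesus 3 stood apart for *MBP* (23200 CPM) and *ATP2A3* (9.285), that of Rhesus 8 for *CRH* (97.1 CPM), *KISS1* (2.65) and *GHRH* (5.23), that of Rhesus 10 for *GATA3* (0.718 CPM) and *GPR151* (0.6155), that of Rhesus 2 for *PGR* (3.76 CPM) and that of Rhesus 7 for *OLIG3* (0.0762 CPM).

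In THA, the sample of Rhesus 8 had the lowest *LHX9* (24.95), *FOXP2* (37.5), *SLC17A6* (352) and *NECAB1* (144.5) and the highest *MBP* (17170), *CRH* (463), *GNRH1* (3.10), *NPY2R* (2.62), *CBLN1* (115.4) and *LAMP5* (15.7). The sample of Rhesus 4 had the highest THA values of *OXT* (0.828 CPM), *HCRT* (0.311), *PMCH* (1.35), *POU4F1* (0.621), *PARPBP* (1.86), *NPY* (1.14) and *PRL* (1.66). The THA samples of Rhesus 3 and Rhesus 10 stood apart for *SLC17A7* (3.12 CPM), *TTR* (265), *GAL* (1.34) and *CYP19A1* (0.4455) and for *PVALB* (145 CPM) and *HAPLN1* (6.81). The remaining ones were *OTP* (0.0801 CPM) and *NR5A1* (0.0801) in Rhesus 11, *SCGN* (0.172 CPM) and *GPR101* (0.258) in Rhesus 2, *CCK* (22.7 CPM) and *GHSR* (0.0709) in Rhesus 6 and *ISL1* (0.2525 CPM) and *CHRNA7* (12.8) in Rhesus 7, where a value below 0.3 CPM stands for 1 to 3 counts.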

How the results depend on the processing

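The counts of called genes moved most in HTHA. With the study's detection rule in place of the filter, 910 genes were higher in THA and 1538 in HTHA, with no filter 888 and 1484, with all 16 region groups in 1 fit 842 and 1540, and with a log2FC above 2 required 232 and 337. DESeq2's size factors gave 757 and 997, and its likelihood-ratio test 768 and 1004. Leaving out 1 animal at a time gave 722 to 934 in THA and 957 to 1087 in HTHA, and the share of calls toward THA was 42.8% with all animals, 49.2% without Rhesus 6 and 35.3% in the fit of all groups. Without Rhesus 6, 738 of the 751 THA calls (98.3%) and 912 of the 1003 HTHA calls (90.9%) remained.

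Without the replicate block the counts were 707 and 1002, and *KCNV1* turned to -0.3748 (-0.07874 in the fit of all groups). The other changes of sign were in genes near 0 that were not called. With 1 animal left out, log2FC was -0.5213 to 0.0934 for *RORB* (positive without Rhesus 6, and 0.04668 with no filter as well), -0.3276 to 0.02275 for *FOXB1* (positive without Rhesus 8) and -0.008309 to 0.2603 for *PCSK2* (negative without Rhesus 3). It was -0.02545 to 0.208 for *MCHR1* (negative without Rhesus 11, and -0.000329 without Rhesus 3), -0.6603 to 0.07156 for *CHRNA6* (positive without Rhesus 11, and 0.1049 without Rhesus 6 and 11), -0.2554 to 0.004386 for *CHRNA7* and -0.3072 to 0.0177 for *SCN2A* (both positive without Rhesus 6, and *SCN2A* 0.07639 without Rhesus 6 and 11). Of 3177 log2FC of named genes under the other settings, 3003 kept direction and side of the threshold, 130 lost a call, 31 gained one and 13 changed sign. Of 1156 counts of list members, 1061 stayed within the limits set. Both totals include the requirement of a log2FC above 2, which reused the main fit. Every called gene with an absolute log2FC below that cut lost its call there by rule. The cause of the other changes was not tested.

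For age stage, 0 genes with all animals became 5 by DESeq2's likelihood-ratio test, 4 with no filter and 0 to 2 with 1 animal left out (2 without Rhesus 6). For sex, DESeq2 gave 1. With 1 animal left out, r of *HCRT* and *PMCH* was 0.858 to 0.976, with exact permutation p adjusted above the threshold without Rhesus 2, 6 or 11 (0.0542, 0.0542 and 0.121), and r was 0.784 without Rhesus 6 and 11 (adjusted 0.358). *OXT* and *HCRT* gave -0.337 to 0.111, positive without Rhesus 2, 3 or 10 (0.0202, 0.111 and 0.0291), and *OXT* and *POMC* gave -0.0567 to 0.559, negative without Rhesus 10. Low counts limit *KISS1*, *GHRH* and *OLIG3*, where 1 count is a large share of the value.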

Other observations

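The spread between animals was larger in HTHA than in THA. The median SD of log2(CPM + 1) over genes was 0.267 in THA and 0.309 in HTHA, with the larger SD in HTHA for 63.1% of genes, and without Rhesus 6 it was 0.270 and 0.285, with 53.6% of genes more variable in HTHA.

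In THA, the samples of Rhesus 4, 8 and 10 had the 3 lowest values of *RORA*, the nuclear receptor of sensory relay nuclei, at 8.28, 5.72 and 7.54 CPM, against 26.6 to 42.4 CPM in the other 5 animals. Those 3 animals are young, and the young Rhesus 7 was among the other 5. *RORA* also varied between animals in other region groups, such as the cortex (mean 4.79 CPM, SD 2.22) and CB (20.2 CPM, SD 8.68). In the corpus callosum it varied less (6.82 CPM, SD 1.27). How much of the split in THA went with age stage, with the animal or library as a whole or with the piece cut was not tested.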
